A study of Mus musculus with 23 samples.

Results

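This account follows 10 genes of the insulin-like growth factor (IGF) axis and of parental imprinting, Igf2, H19, Mest, Dlk1, Peg3, Ndn, Grb10, Plagl1, Igf1 and Igf2r, through 23 Affymetrix arrays of mouse gastrocnemius, a calf muscle. The genes were chosen by symbol with measured values of these same arrays in view, namely their changes after injury and their differences between genotypes, so their values are given below as a description and without p-values. Of the 10, 9 had probe sets listed for that gene alone, 25 probe sets in all, and the brightest probe set of each of the 9 passed the filter on low signal, among 11164 of 12393 genes on the array. H19 was read only by a probe set listed for Mir675 and H19 together, 1 further probe set, which is described but is in no count. The 9 groups were muscles of 3 genotypes, control, emerin knockout (KO) and knockout of lamin A/C (lamin A/C KO), on day 0, day 3 and day 4 of a staged degeneration and regeneration of the muscle that followed an injection. Control had 2 arrays on each day and lamin A/C KO 3, while emerin KO had 2 arrays on day 0 but 3 on day 3 and 3 on day 4. By their titles the control muscles belong to the lamin A line, so that knockout and line background cannot be told apart for emerin KO. On day 0 the control and emerin KO muscles are labelled as not injected and the lamin A/C KO muscles as taken 0 days after injection. The labels give no age, sex, strain, injected agent or promoter of either allele, and leave unsaid whether each array of a group is another animal, so the standard errors measure the spread between these arrays, which may be technical.

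IGF1 and IGF2 are secreted growth factors that act through the type 1 receptor Igf1r and the insulin receptor on growth, survival and myoblast differentiation, and IGF2 is made by differentiating myoblasts themselves. Igf2r is the scavenger receptor that takes IGF2 to lysosomes, and Grb10 is an adaptor that dampens signalling from the insulin and IGF1 receptors. Imprinted genes are expressed mainly from the maternal or the paternal copy according to methylation marks set in the germ line. Igf2, Plagl1, Mest, Peg3, Dlk1 and Ndn are known as paternally expressed growth or differentiation genes, H19 and Igf2r as maternally expressed, and Grb10 as maternally expressed in most peripheral tissues, while Igf1 is not imprinted. Arrays of this kind do not tell the parental copies apart, and none of the values below is a measure of imprinting or methylation.

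The windows before the starts of 4 of these genes are shown because their signals lay low together in day 0 emerin KO muscle and because imprinted promoters are known for their CG dinucleotides, the sites of DNA methylation, which are in capitals. Ndn and Grb10 also lay low there, and their windows are not shown. That of Ndn holds 5 CG dinucleotides, and those of Grb10 hold 40 and 8. The sequences are from RefSeq on GRCm38.p6 and run 5′ to 3′ on the strand of the gene. The Igf2 window is that with the most CG dinucleotides of 4, chr7:142658805-142659054 on the minus strand, and holds 22. The Plagl1 window, chr10:13090582-13090831 on the plus strand, holds 19. The Mest window, chr6:30737800-30738049 on the plus strand, holds 14, while that of the gene's outermost start holds 7. The Peg3 window, chr7:6730463-6730669 on the minus strand, holds 7 in the 207 bases that lie before the gene's outermost annotated end.
Igf2: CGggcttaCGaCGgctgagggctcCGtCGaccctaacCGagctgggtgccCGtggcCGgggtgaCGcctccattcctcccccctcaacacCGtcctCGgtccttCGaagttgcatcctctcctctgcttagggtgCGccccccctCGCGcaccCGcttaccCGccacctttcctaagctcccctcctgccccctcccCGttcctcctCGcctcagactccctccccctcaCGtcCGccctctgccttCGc
Plagl1: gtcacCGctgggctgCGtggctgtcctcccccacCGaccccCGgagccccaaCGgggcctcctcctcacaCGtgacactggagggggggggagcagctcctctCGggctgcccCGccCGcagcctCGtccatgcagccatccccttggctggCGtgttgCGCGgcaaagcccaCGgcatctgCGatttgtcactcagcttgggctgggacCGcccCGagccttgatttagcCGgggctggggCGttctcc
Mest: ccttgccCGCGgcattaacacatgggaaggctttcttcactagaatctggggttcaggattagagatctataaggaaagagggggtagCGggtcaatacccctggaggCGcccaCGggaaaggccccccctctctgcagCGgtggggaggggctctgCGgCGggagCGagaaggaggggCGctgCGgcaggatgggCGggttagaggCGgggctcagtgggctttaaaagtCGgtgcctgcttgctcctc
Peg3: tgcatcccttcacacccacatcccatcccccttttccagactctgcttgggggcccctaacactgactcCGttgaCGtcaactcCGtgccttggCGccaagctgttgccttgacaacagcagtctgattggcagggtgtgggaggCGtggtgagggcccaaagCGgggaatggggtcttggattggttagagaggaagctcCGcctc
RefSeq gave windows of 250 bases for 9 of the 10 genes, 15 windows in all, and 11 of the 15 held more CG dinucleotides than the median of 6 over 32851 windows of all genes. The motif GGGGCCCC, to which the zinc-finger protein of Plagl1 is known to bind, and the motif CAGCTG, an E-box of the kind bound by MyoD, were searched on both strands, each being its own reverse complement, and the pair can overlap by 1 base. GGGGCCCC was found in 1 of the 15 windows, that of Peg3, where it starts at base 50, against 0.889% of all windows. CAGCTG was found in 2 of the 15, the window of Igf1 and that of the outermost start of Mest, which is not shown, against 13.0% of all windows. A match is a description of these letters and not a sign of binding.

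The checks of the labels and of RNA quality bear on all that follows. The signal of Emd, which encodes emerin, was 153 to 465 on the 8 emerin KO arrays and 587 to 871 on the other 15, and the brightest probe set of Lmna, which encodes lamins A and C, read 53.0 to 109 on the 9 lamin A/C KO arrays and 650 to 5334 on the other 14. Signals are MAS5 values scaled to a trimmed mean of 500 on every array, so they are relative to the whole array. The ratio of the 3′ to the 5′ Gapdh control probe sets, which rises as RNA degrades, was 4.79, 6.09 and 3.62 in emerin KO on day 3 and 2.89, 1.40 and 5.30 in emerin KO on day 4. Before injury its values in emerin KO were 0.914 and 1.34, and the 15 arrays of control and of lamin A/C KO lay between 0.822 and 1.64. RNA quality therefore moves with genotype on days 3 and 4 but hardly on day 0. Values or counts that take it into account are given beside the emerin KO calls of the 9 genes by their brightest probe sets. Differences of other probe sets, singly or averaged, are given without the ratio in the fit. Counts with the ratio in the fit stand beside the emerin KO day 3 calls of the IGF, imprinting and methylation lists. Calls of cell type markers are given without the ratio in the fit.

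The ligand Igf2 (chromosome 7, 142650768 to 142666816 on GRCm38.p6) was low in emerin KO and high in lamin A/C KO muscle on day 0. Its brightest probe set, 1448152_at, read 2349 and 2016 on the control day 0 arrays, 6878 and 7267 on day 3, and 8411 and 8321 on day 4. In emerin KO muscle it read 523 and 688 on day 0, 1482, 1396 and 1954 on day 3, and 5890, 8063 and 5192 on day 4. In lamin A/C KO muscle it read 3987, 3546 and 4708 on day 0, 5387, 5193 and 4308 on day 3, and 9035, 10217 and 7778 on day 4. Every emerin KO array thus lay below every control array of the same day, and every lamin A/C KO array lay above the control arrays on day 0 and below them on day 3, while on day 4 the lamin A/C KO and control arrays overlapped. In order of the mean the groups ran from emerin KO day 0 (606 ± 116, SD, n = 2) through emerin KO day 3 (1611 ± 300, n = 3), control day 0 (2182 ± 235, n = 2) and lamin A/C KO day 0 (4081 ± 587, n = 3), whose arrays did not overlap those of the group before. The 4 groups above these, lamin A/C KO day 3, emerin KO day 4, control day 3 and control day 4, overlapped their neighbours except between control day 3 and day 4, and lamin A/C KO day 4 was the highest (9010 ± 1219, n = 3). The other Igf2 probe set, 1415931_at, was dim, between 46.9 and 322 on all arrays, and on day 0 its emerin KO values of 46.9 and 128 overlapped the control values of 87.1 and 113. The low day 0 signal of Igf2 in emerin KO therefore rests on 1 probe set.

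The ligand Igf1 (chromosome 10, 87858265 to 87937047), the non-imprinted member of the axis, varied more between arrays of a group. Its brightest probe set, 1437401_at, read 2119 and 1641 in control on day 0, 3059 and 2009 on day 3, and 3839 and 2469 on day 4. In emerin KO it read 1387 and 796, then 1713, 1035 and 1155, then 2665, 2564 and 1614. In lamin A/C KO it read 1609, 2266 and 1413, then 2135, 2079 and 1237, then 3678, 2990 and 2480. Each of the 9 group means overlapped its neighbour in the order of levels, and emerin KO day 0 was the lowest (1091 ± 418, SD, n = 2) and control day 4 the highest (3154 ± 968, n = 2). Probe set 1452014_a_at separated the groups further: on day 3 it read 1510 and 1849 in control, 437, 361 and 500 in emerin KO, and 1315, 1299 and 1289 in lamin A/C KO. On that day the emerin KO arrays of this probe set lay below all others, and its difference from control was -1.88 ± 0.25 (log2 difference ± standard error, SE, of the fit) against -0.95 ± 0.31 for the brightest probe set and -0.78 ± 0.18 for the third, 1419519_at. The Gapdh ratio of these emerin KO arrays was 3.62 to 6.09, and with it as a covariate the brightest probe set gave 0.11 ± 0.51. No such fit is given for the other probe sets singly. In emerin KO on day 4, 1452014_a_at read 1174, 979 and 501 on the arrays with ratios of 1.40, 2.89 and 5.30.

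**Figure D1:**
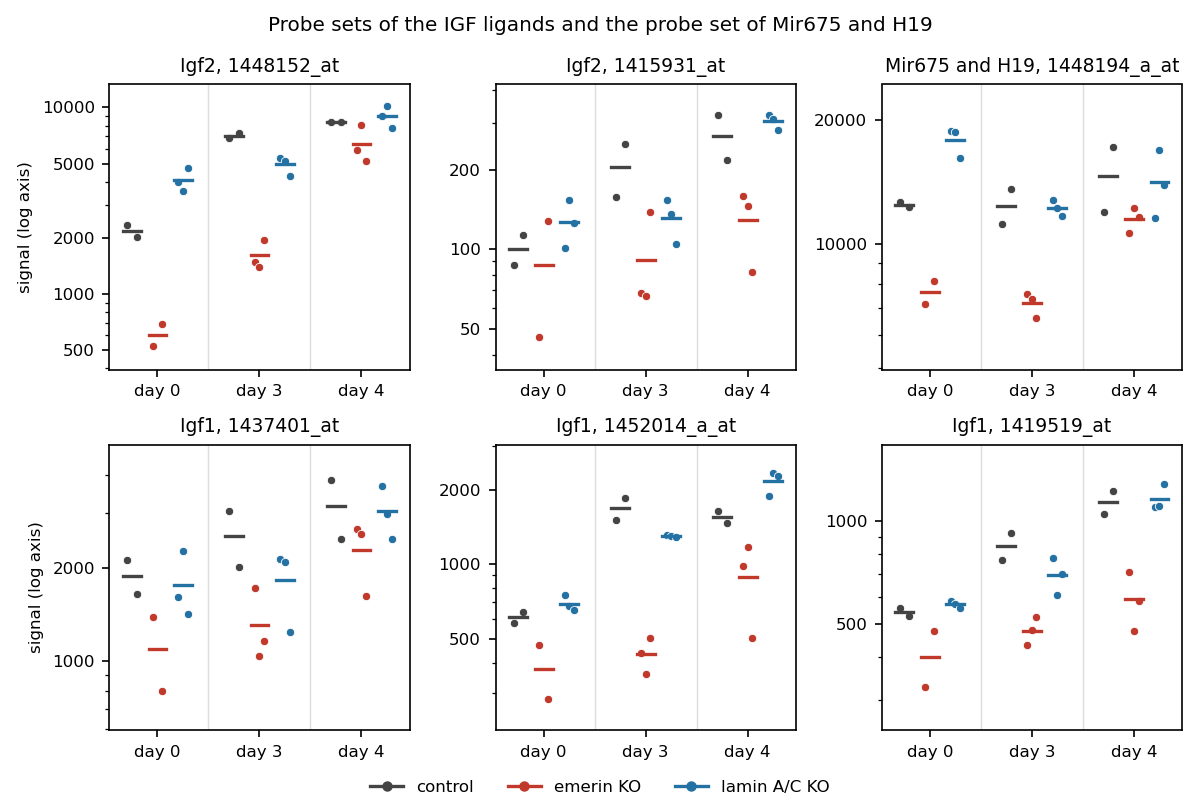
Signal on a log axis of the Igf2 and Igf1 probe sets and of the probe set of Mir675 and H19, by day, with 1 point per array and a bar at the mean of each group (control in grey, emerin KO in red, lamin A/C KO in blue). The brightest Igf2 probe set spans 523 to 10217, while the probe set of Mir675 and H19 stays between 6595 and 18820.

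The probe set listed for Mir675 and H19, 1448194_a_at, reads a noncoding RNA that lies beside Igf2 and hosts the microRNA Mir675: H19 spans 142575530 to 142578146 of chromosome 7 and Mir675 lies inside it, at 142577064 to 142577147. Its control signals were 12662 and 12311 on day 0, 11202 and 13620 on day 3, and 11960 and 17279 on day 4. Its emerin KO signals were 7160 and 8118, then 7576, 7343 and 6595, then 10642, 12219 and 11631. Its lamin A/C KO signals were 18820, 18696 and 16223, then 12812, 12250 and 11709, then 11602, 16968 and 13944. On day 0 the groups were ordered as for Igf2, with emerin KO lowest and lamin A/C KO highest and no overlap between any of them. In control and lamin A/C KO the probe set was level or lower from day 0 to day 3: in control the day 3 minus day 0 difference was -0.02 ± 0.18 where that of Igf2 was 1.69 ± 0.21, and in lamin A/C KO it was -0.54 ± 0.15 where that of Igf2 was 0.28 ± 0.17. In emerin KO muscle it was level from day 0 to day 3 (-0.09 ± 0.16) and higher on day 4 than on day 3 (0.68 ± 0.15) with no overlap, where Igf2 differed by 1.96 ± 0.17.

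By the brightest probe set of each gene, the scavenger receptor Igf2r (chromosome 17, 12682406 to 12769706) was the member that differed least between genotypes. Its brightest probe set, 1424112_at, read 1071 and 1312 in control on day 0, 1927 and 2049 on day 3, and 1821 and 2260 on day 4. The emerin KO values were 1450 and 1252, then 1815, 2281 and 1678, then 1997, 1900 and 2336. The lamin A/C KO values were 1150, 1137 and 1418, then 1959, 2148 and 2469, then 1589, 1587 and 2020. In this probe set the genotypes overlapped on every day, and the 3 day 0 groups, with means of 1191 to 1351, lay below all groups of later days. The other probe set, 1424111_at, placed emerin KO higher, with log2 differences from control of 0.32 ± 0.18, 0.39 ± 0.17 and 0.45 ± 0.17 on days 0, 3 and 4. On day 3 it read 1911 to 2116 in emerin KO, 1420 to 1607 in control and 1393 to 1775 in lamin A/C KO. On day 4 it read 1748 to 2763 in emerin KO, which overlapped control, and 1242 to 1324 in lamin A/C KO. The mean of both probe sets gave 0.53 ± 0.11 for emerin KO minus lamin A/C KO on day 4.

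The adaptor Grb10 (chromosome 11, 11930499 to 12037428) was low in emerin KO on day 0 and overlapped the other genotypes afterwards. Probe set 1425458_a_at read 2967 and 2697 in control on day 0, 7271 and 8330 on day 3, and 7932 and 9508 on day 4. The emerin KO signals were 1497 and 1567, then 6995, 7967 and 5889, then 7906, 8531 and 7962. The lamin A/C KO signals were 3366, 3795 and 3706, then 7965, 7751 and 6628, then 8520, 7836 and 7209. The day 0 groups did not overlap, in the order emerin KO, control, lamin A/C KO, and the 6 later groups, with means of 6950 to 8720, each overlapped the next. The other Grb10 probe sets, 1425457_a_at and 1430164_a_at, were dim, between 82.9 and 936, and did not follow this course. From day 0 to day 3 in lamin A/C KO, the brightest probe set gave 1.03 ± 0.12 and the mean of the 3 gave 0.02 ± 0.17.

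Among the regulators of growth, Plagl1 (chromosome 10, 13090832 to 13131694), a zinc-finger transcription factor known to act on other imprinted genes, was low in emerin KO on all 3 days. Its probe set 1426208_x_at read 1903 and 2414 in control on day 0, 4698 and 5108 on day 3, and 6693 and 6900 on day 4. In emerin KO it read 546 and 413, then 997, 1341 and 1172, then 2725, 3498 and 2508. In lamin A/C KO it read 1933, 1515 and 1760, then 4089, 3334 and 2678, then 5925, 6350 and 5641. The emerin KO arrays lay below all control and lamin A/C KO arrays on days 0 and 3 and on day 4, and control day 4 was the highest group (6796 ± 146, SD, n = 2). A probe set whose name ends in _x_at may share signal with related sequences, and the other Plagl1 probe set, 1450533_a_at, stayed under the filter with 187 as its highest signal.

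Mest (chromosome 6, 30733506 to 30748466), which encodes an enzyme-like membrane protein of mesodermal tissue, had a single probe set, 1423294_at. It read 950 and 910 in control on day 0, 4495 and 4028 on day 3, and 6594 and 4442 on day 4. The emerin KO signals were 300.1 and 339, then 1571, 1748 and 1874, then 2164, 3631 and 1865. The lamin A/C KO signals were 1088, 1030 and 920, then 3451, 3115 and 2089, then 6155, 6664 and 6355. The emerin KO arrays lay below those of both other genotypes on each day, and the lamin A/C KO arrays overlapped control on days 0 and 4 and lay below it on day 3. The group means ran from 320 ± 27.5 (SD, n = 2) in emerin KO on day 0 to 6391 ± 257 (n = 3) in lamin A/C KO on day 4.

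Peg3 (chromosome 7, 6703892 to 6730462), a zinc-finger protein found in muscle stem cells, was low in emerin KO on day 0 and close to the other genotypes by day 4. Probe set 1417355_at read 1495 and 1186 in control on day 0, 3874 and 4089 on day 3, and 5656 and 4390 on day 4. In emerin KO it read 625 and 652, then 2740, 2872 and 2942, then 4454, 4444 and 4062. In lamin A/C KO it read 1978, 1880 and 1836, then 5235, 3771 and 3029, then 5045, 4459 and 3264. On day 0 the groups did not overlap, in the order emerin KO, control, lamin A/C KO, as for Igf2, Grb10 and the probe set of Mir675 and H19. Probe set 1433924_at gave a day 0 emerin KO minus control difference of -1.65 ± 0.27 against -1.02 ± 0.21 for the brightest. The third, 1417356_at, was dim and stood apart, reading 7.71, 8.66 and 14.8 in emerin KO on day 3 against 410.3 and 400.1 in control. Those emerin KO arrays had Gapdh ratios of 4.79, 6.09 and 3.62. The day 4 emerin KO array at a ratio of 1.40 read 213, while those at 2.89 and 5.30 read 17.1 and 11.4. Among day 3 lamin A/C KO arrays the signal was 30.7 at a ratio of 1.64, against 323 at 1.21 and 251 at 1.33. Yet day 0 emerin KO arrays read 13.3 and 18.6 at ratios of 0.914 and 1.34. How far RNA quality enters this contrast was not tested.

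Dlk1 (chromosome 12, 109452485 to 109463336), a membrane protein related to Notch ligands and known in regenerating muscle, had a single probe set, 1449939_s_at. It read 598 and 554 in control on day 0, 962 and 694 on day 3, and 1861 and 1525 on day 4. For emerin KO the values were 267 and 183, then 316, 289 and 404, then 1007, 1337 and 619. For lamin A/C KO the values were 562, 587 and 366, then 512, 650.1 and 226, then 1678, 1303 and 1081. Unlike most of the others, Dlk1 was high mainly on day 4 in all 3 genotypes, and emerin KO lay below control on each day.

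Ndn (chromosome 7, 62348277 to 62349928), which encodes the growth-restraining protein necdin, was nearly level over the days in control and lamin A/C KO. Probe set 1435383_x_at read 1312 and 1200 in control on day 0, 1322 and 1575 on day 3, and 1584 and 1737 on day 4. In emerin KO it read 579 and 655, then 1038, 1247 and 1446, then 1241, 1188 and 1033. For lamin A/C KO the values were 964, 1036 and 1374, then 1243, 1353 and 1405, then 1411, 1344 and 1391. Emerin KO day 0 stood below all 8 other groups, which lay between 1125 and 1660 on average. Of the 8 Ndn probe sets, 1435383_x_at, 1435382_at, 1455792_x_at and 1415923_at placed emerin KO below control on day 0, by -0.99 ± 0.17, -0.86 ± 0.16, -0.64 ± 0.18 and -0.90 ± 0.20. The other 4 gave differences of 0.01 ± 0.42 to 0.28 ± 0.40 with overlapping arrays.

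**Figure D2:**
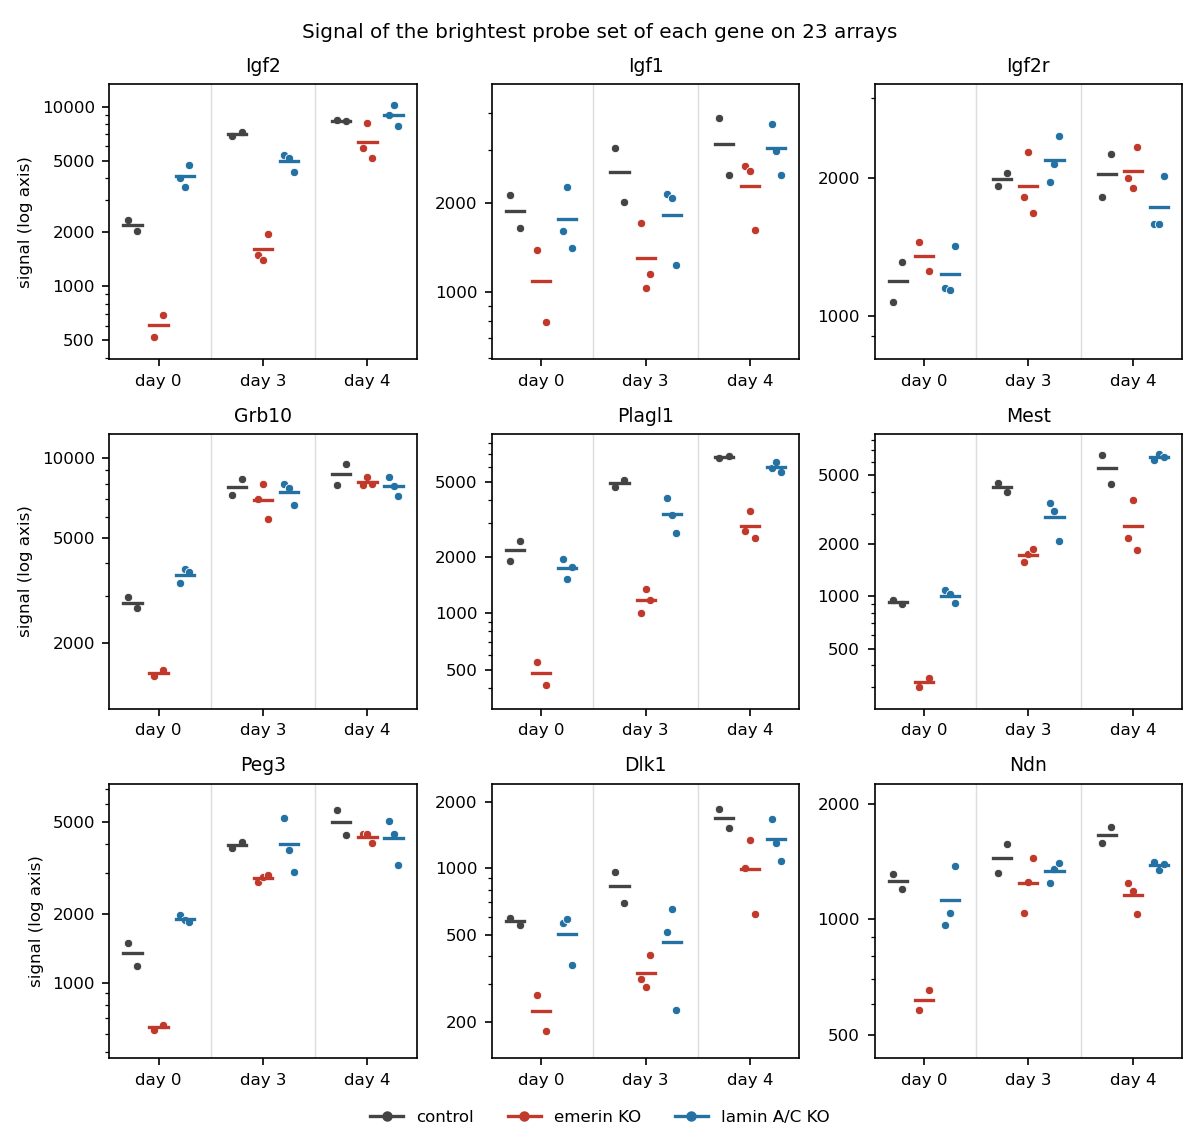
Signal on a log axis of the brightest probe set of each of the 9 genes, by day, with 1 point per array and a bar at the mean of each group (control in grey, emerin KO in red, lamin A/C KO in blue). In the Plagl1 and Mest panels the emerin KO arrays lie below the others on each day, and in the Igf2r panel the genotypes overlap on each day.

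The change after injury was measured within each genotype, as log2 differences from 1 limma fit over all genes and all 9 groups, with folds given as ratios of the group mean signals. In control muscle from day 0 to day 3, Mest was 4.58-fold higher (2.16 ± 0.25), Igf2 3.24-fold (1.69 ± 0.21), Peg3 2.97-fold (1.56 ± 0.21) and Grb10 2.75-fold (1.45 ± 0.15). Plagl1 (1.18 ± 0.20) and Igf2r (0.73 ± 0.18) followed, while Dlk1 (0.48 ± 0.36), Igf1 (0.41 ± 0.33) and Ndn (0.20 ± 0.17) differed by little more than their standard errors. For Igf1 this held for the brightest probe set alone. Its probe set 1452014_a_at read 577 to 641 in control on day 0 and 1510 to 1849 on day 3, and 1419519_at read 526 to 557 and then 769 to 921. With an adjusted p under 0.05 as the threshold, 6 of the 9 genes passed, all higher on day 3, beside 34.3% of all genes tested. By day 4, 7 passed relative to day 0, Dlk1 (1.50 ± 0.36) being the further one, beside 33.8%. Between days 3 and 4 in control 0 passed, beside 0.0448%. These shares are a background only, since the genes were chosen with these contrasts in view.

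In emerin KO muscle Igf2, Mest, Peg3, Grb10 and Plagl1 climbed from day 0 levels below those of control, and Igf2r from a level that overlapped control. By day 3, 7 passed relative to day 0, Ndn (0.97 ± 0.16) among them and Dlk1 (0.53 ± 0.33) and Igf1 (0.27 ± 0.31) not, beside 46.1% of all genes. By day 4 all 9 passed relative to day 0, beside 44.2%, with Igf2 10.5-fold higher (3.32 ± 0.19), Mest 7.99-fold (2.82 ± 0.22) and Peg3 6.77-fold (2.70 ± 0.19). The Ndn calls rest on its brightest probe set. With the mean of all its probe sets Ndn did not pass from day 0 to day 3 (0.16 ± 0.15) or to day 4 (0.25 ± 0.15). Its probe set 1415923_at read 366 to 386 on day 0 and 293 to 426 on day 3. Between days 3 and 4 in emerin KO 3 passed, Igf2 (1.96 ± 0.17), Dlk1 (1.42 ± 0.30) and Plagl1 (1.29 ± 0.16), beside 1.17%. The Gapdh ratio was high on all day 3 arrays and on 2 of the 3 day 4 arrays of this genotype, and the array with the ratio of 1.40 gave the highest day 4 signal of the 3 for Igf2, Mest, Plagl1, Dlk1 and Grb10. With the ratio as a covariate the counts were 7, 8 and 2: Igf2r was no longer past the threshold from day 0 to day 3 (0.05) or to day 4 (0.33), Dlk1 passed from day 0 to day 3 (1.88) and no longer from day 3 to day 4 (0.92). Without the 5 arrays with a ratio above 2, Igf2r also missed it from day 0 to day 4 (0.49). Igf2r missed it on both days without emerin KO day 0 replicate 2 (0.39 and 0.50) and on day 3 without emerin KO day 3 replicate 2 (0.37), and Igf1 missed it on day 4 without emerin KO day 0 replicate 2 (0.67). The day 3 to day 4 call of Dlk1 was lost without replicate 1 or 2 of day 3 or replicate 1 or 2 of day 4, with differences of 1.17 to 1.38.

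In lamin A/C KO muscle the rise of Igf2 was shallow by day 3. From day 0 to day 3, 5 genes passed, Mest (1.45 ± 0.20), Peg3 (1.03 ± 0.17), Grb10 (1.03 ± 0.12), Plagl1 (0.93 ± 0.16) and Igf2r (0.81 ± 0.15), beside 43.0% of all genes, and Igf2 (0.28 ± 0.17) did not. The brightest Igf1 probe set was level (0.03 ± 0.27), while 1452014_a_at of Igf1 read 650 to 750 on day 0 and 1289 to 1315 on day 3. By day 4, 8 passed relative to day 0, all but Ndn (0.31 ± 0.14), beside 39.2%, with Mest 6.31-fold higher (2.62 ± 0.20) and Igf2 2.21-fold (1.14 ± 0.17). Between days 3 and 4, 4 passed, Dlk1 (1.58 ± 0.30), Mest (1.17 ± 0.20), Igf2 (0.85 ± 0.17) and Plagl1 (0.84 ± 0.16), beside 2.04%. That last count was 1 without lamin A/C KO day 3 replicate 3 and 1 with the Gapdh ratio as a covariate, the ratio being 1.21 to 1.64 on day 3 and 0.822 to 0.888 on day 4 in this genotype.

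Between emerin KO and control muscle before injury, Plagl1, Igf2 and Mest stood furthest apart. On day 0 Plagl1 was 4.50-fold lower (-2.10 ± 0.20), Igf2 3.60-fold lower (-1.80 ± 0.21), Mest 2.91-fold lower (-1.46 ± 0.25) and Peg3 2.10-fold lower (-1.02 ± 0.21). Ndn (-0.99 ± 0.17) and Grb10 (-0.87 ± 0.15) also lay below control, Dlk1 (-1.26 ± 0.36) and Igf1 (-0.81 ± 0.33) were lower but not past the threshold, and Igf2r was at 0.18 ± 0.18. Past the threshold were 6 of the 9, all lower, beside 3.26% of all genes tested, and the median over the 9 was -1.02 where that over all genes was 0.09. The count was 5 or 6 without any 1 array, 6 with the Gapdh ratio as a covariate or without the 5 high-ratio arrays, 3 when all probe sets of a gene were averaged and 1 when the fit held the 2 compared groups alone, which leaves 2 arrays against 2. With the ratio as a covariate the differences of Plagl1, Igf2 and Mest were -2.02, -1.70 and -1.30.

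Summed marker signals of some other cell types were also lower in the emerin KO day 0 group, though most markers of these lists did not pass the threshold. The marker calls stand beside the 3.26% of all genes tested. The summed signal of 11 tested markers of fibroblasts and mesenchymal progenitors, out of 12 listed, was 39187 to 59500 on the emerin KO arrays against 80524 to 91897 in control and 68291 to 99924 in lamin A/C KO, and 5 of the 11 were lower than control past the threshold: Col1a1, Col1a2, Col3a1, Postn and Thy1. The summed signal of 11 tested satellite cell and myoblast markers, out of 12 listed, was 2841 to 2968 against 3477 to 3672 in control and 5664 to 6037 in lamin A/C KO, with Myh3 and Myog lower than control past the threshold. The 5 tested of 7 Schwann cell markers summed to 4866 to 6689 against 11892 to 12943 in control and 7529 to 8379 in lamin A/C KO, and 1 of them, Pmp22, was lower past the threshold. The 10 fast myofiber markers summed to 264791 to 280850 in emerin KO and 270154 to 274920 in control, and 0 of them differed past the threshold between these groups by limma. In whole muscle fewer cells of a type and less RNA per cell cannot be told apart, and the part of these cell types in the low growth gene signals was not tested.

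On day 3 Igf2, Plagl1 and Mest were again past the threshold. Igf2 was 4.39-fold lower than control (-2.13 ± 0.19), Plagl1 4.19-fold lower (-2.05 ± 0.18), Mest 2.46-fold lower (-1.29 ± 0.22), Dlk1 2.46-fold lower (-1.22 ± 0.33) and Igf1 1.95-fold lower (-0.95 ± 0.31). These 5 passed, all lower, beside 16.3% of all genes, while Peg3 (-0.48 ± 0.19), Ndn (-0.22 ± 0.16), Grb10 (-0.17 ± 0.14) and Igf2r (-0.06 ± 0.17) did not. Dlk1 and Igf1 had day 0 differences of a like size (-1.26 and -0.81) that missed the threshold. With the Gapdh ratio as a covariate 0 passed. Igf2 was then at -1.36 ± 0.29, Plagl1 at -1.47 ± 0.31, Mest at -0.18 ± 0.31, Dlk1 at 0.27 ± 0.50 and Igf1 at 0.11 ± 0.51. The emerin KO day 3 arrays all have ratios above every control array, so this fit can hardly separate ratio from genotype. The share of all genes past the threshold in it is not given. The count was 3 without control day 3 replicate 1. The fibroblast marker sum was 51705 to 60856 in emerin KO against 78722 to 80492 in control, and 3 of its 11 markers, Col1a1, Lum and Postn, were lower past the threshold. The 12 macrophage markers summed to 55017 to 56516 against 42747 to 43202, with 4 of them, C1qa, Cd163, Cd68 and Csf1r, higher. Of the 11 myoblast markers, Cdh15, Myod1 and Myog were higher and Msc, Myh3 and Myh8 lower. Of the 10 fast myofiber markers, Mylpf, Tnni2 and Tnnt3 were lower. These marker calls are given without the Gapdh ratio in the fit, and the part of these cell types was not tested.

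On day 4, 2 of the 9 passed, Plagl1 (-1.23 ± 0.18) and Mest (-1.13 ± 0.22), both lower in emerin KO, beside 5.87% of all genes. Dlk1 (-0.82 ± 0.33), Ndn (-0.52 ± 0.16), Igf1 (-0.46 ± 0.31) and Igf2 (-0.41 ± 0.19) were lower and did not pass. For Igf1 this held for the brightest probe set, while the mean of its probe sets passed (-0.75 ± 0.16). Its probe set 1419519_at read 476 to 707 in emerin KO and 1044 to 1221 in control. With the Gapdh ratio as a covariate the brightest Igf1 probe set gave 0.17 ± 0.38. The count was 0 when the fit held the Gapdh ratio, with Plagl1 at -0.88 ± 0.23 and Mest at -0.47 ± 0.23. With the 5 high-ratio arrays left out, which leaves 1 emerin KO array on day 4, Plagl1 was at -0.95 and Mest at -0.57. The count was 1 without control day 4 replicate 1 and 3 without emerin KO day 4 replicate 2. The fibroblast marker sum was 67044 to 72305 against 79352 to 92995 in control, with Lum and Postn lower past the threshold, and the macrophage sum was 50044 to 55554 against 39832 to 43579, with C1qa and Csf1r higher. Of the myoblast markers Cdh15, Chrng and Myod1 were higher. These marker calls, too, are given without the Gapdh ratio in the fit, and the part of these cell types was not tested.

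**Figure D3:**
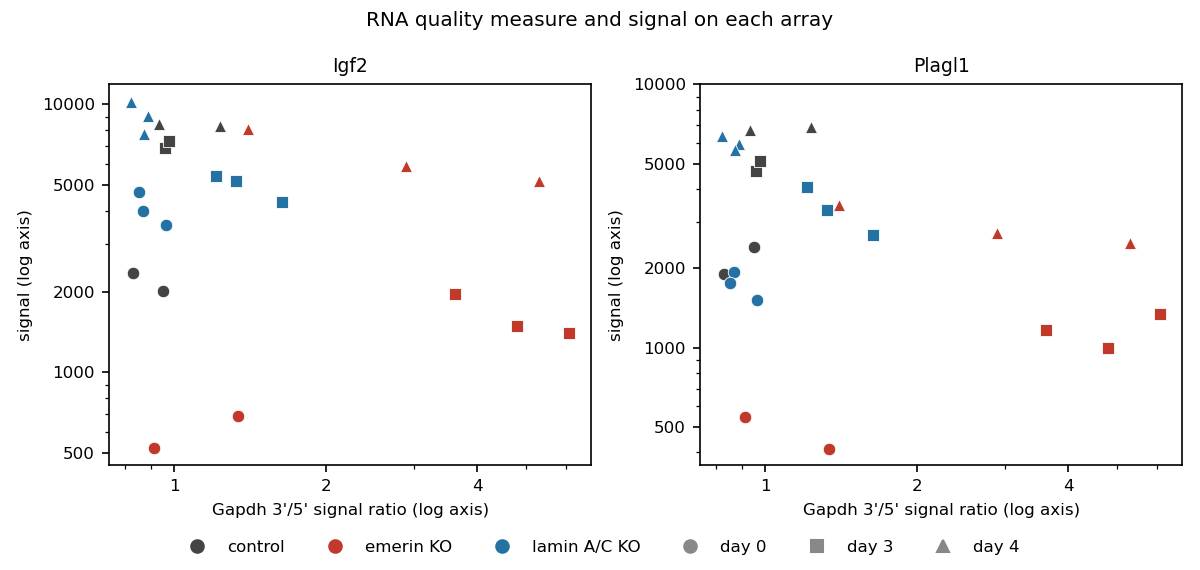
Signal of Igf2 and of Plagl1 against the 3′ to 5′ Gapdh signal ratio, both on log axes, with 1 point per array, coloured by genotype and shaped by day. The 2 emerin KO day 0 arrays have ratios of 0.914 and 1.34, within the range of the other genotypes, and the lowest signals of all for both genes.

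Between lamin A/C KO and control muscle, Igf2 on day 0 was the single difference of the 9 genes past the threshold. There Igf2 was 1.87-fold higher (0.89 ± 0.19), the 1 of 9 genes past the threshold, beside 0.896% of all genes. The labels of these day 0 groups differ, as not injected for control and 0 days after injection for lamin A/C KO. That call was lost without control day 0 replicate 1, control day 0 replicate 2, lamin A/C KO day 0 replicate 1 or lamin A/C KO day 0 replicate 3, with differences of 0.779 to 0.996, and with the mean of both Igf2 probe sets (0.58). Peg3 (0.50 ± 0.19) and Grb10 (0.35 ± 0.14) were higher and did not pass. On day 3, 0 of the 9 passed by limma, beside 0.0269%, and on day 4, 0 passed, beside 0.0448%. Day 3 values leaned lower, with Dlk1 at -0.89 ± 0.33, Mest at -0.59 ± 0.22, Plagl1 at -0.56 ± 0.18 and Igf2 at -0.51 ± 0.19, and in these 4 genes the lamin A/C KO arrays lay below both control arrays. The myoblast marker sum was also highest in lamin A/C KO on day 0, with Itga7 and Myh8 above control past the threshold. The summed macrophage markers were 8341 to 9701 against 5537 to 7037 in control, with C1qa and Lgals3 past the threshold, and the Schwann cell markers were lower in sum, with 0 of 5 past it by limma. The part of these cell types in the Igf2 signal was not tested.

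**Figure D4:**
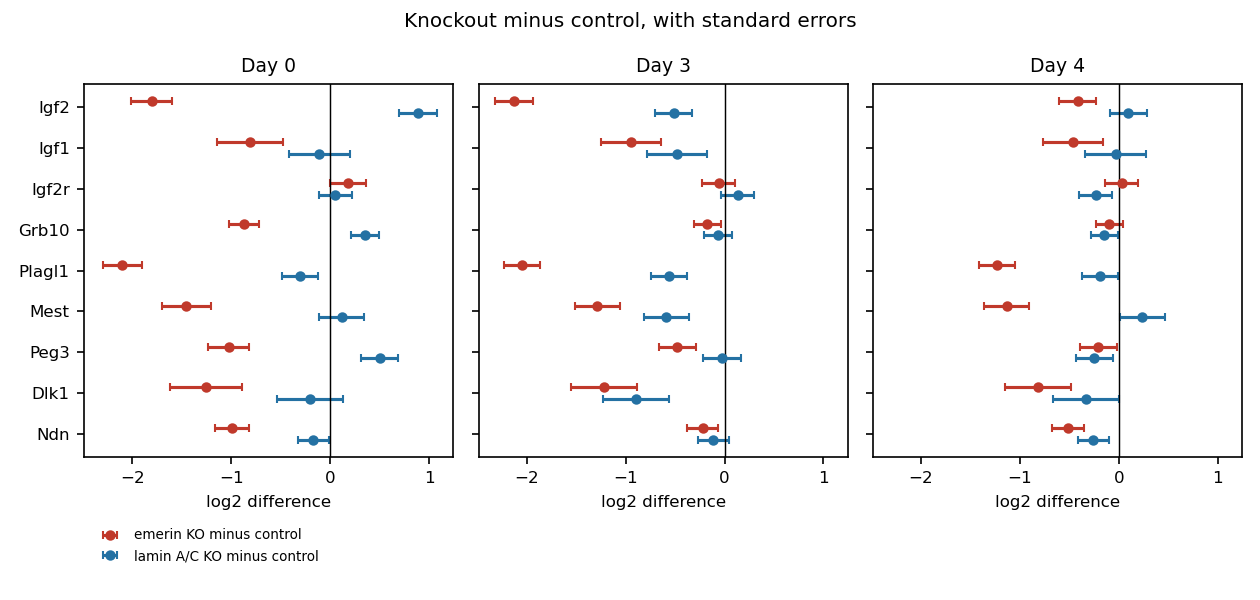
Log2 difference of each knockout from control for the 9 genes on days 0, 3 and 4, with bars of 1 standard error (emerin KO in red, lamin A/C KO in blue). On day 0 the emerin KO differences run from -2.10 (Plagl1) to 0.18 (Igf2r) and those of lamin A/C KO from -0.31 (Plagl1) to 0.89 (Igf2).

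The knockouts set against each other share no control arrays. Their day 0 labels differ, as not injected for emerin KO and 0 days after injection for lamin A/C KO. On day 0 emerin KO lay below lamin A/C KO by -2.69 ± 0.19 in Igf2, a 6.74-fold difference, by -1.79 ± 0.18 in Plagl1, -1.57 ± 0.22 in Mest, -1.52 ± 0.19 in Peg3, -1.22 ± 0.14 in Grb10 and -0.82 ± 0.16 in Ndn. These 6 passed, beside 6.30% of all genes, and the differences of the 6 were all past the threshold with the Gapdh ratio as a covariate too. On day 3, 3 passed, Igf2 (-1.61 ± 0.17), Plagl1 (-1.49 ± 0.16) and Mest (-0.70 ± 0.20), beside 9.95%. On day 4, 3 passed, Mest (-1.37 ± 0.20), Plagl1 (-1.04 ± 0.16) and Igf2 (-0.51 ± 0.17), beside 16.4%. With the ratio as a covariate 0 passed on day 3 and 0 on day 4. On day 3 Igf2 was then at -1.02 ± 0.23, Plagl1 at -1.04 ± 0.25 and Mest at 0.16 ± 0.25. On day 4 Mest was at -0.55 ± 0.24, Plagl1 at -0.62 ± 0.24 and Igf2 at 0.06 ± 0.23. With the mean of a gene's probe sets and no covariate, Igf1 was among the genes past the threshold on days 0, 3 and 4. Its differences were then -0.685 ± 0.16, -0.835 ± 0.14 and -0.908 ± 0.14. The brightest Igf1 probe set with the ratio as a covariate gave -0.56 ± 0.28, 0.35 ± 0.41 and 0.35 ± 0.40.

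Whether the change after injury itself differed between genotypes was read from interaction terms, a knockout's change minus that of control. From day 0 to day 3, 0 of the 9 passed for emerin KO by limma, beside 2.64% of all genes. From day 0 to day 4, 1 passed, Igf2, whose rise was larger in emerin KO by 1.39 ± 0.28, beside 0.573%, and from day 3 to day 4 it was again Igf2 (1.71 ± 0.27), beside 0.0448%. With the Gapdh ratio as a covariate these 2 differences were 1.74 ± 0.25 and 1.41 ± 0.24, both past the threshold. On day 3 that fit can hardly separate ratio from genotype. For lamin A/C KO the rise of Igf2 from day 0 to day 3 was smaller than in control by -1.40 ± 0.27, the 1 of 9 past the threshold, beside 0.170%, and 0 passed from day 0 to day 4, beside 0.206%, or from day 3 to day 4, beside 0.00896%. Each of the 3 Igf2 interactions lost its call when 1 control array was left out: the first without control day 0 replicate 1, control day 4 replicate 1 or control day 4 replicate 2, the second without control day 3 replicate 1, control day 3 replicate 2 or control day 4 replicate 2, and the third without any 1 of the 4 control arrays of day 0 and day 3. The lamin A/C KO interaction was lost, too, without lamin A/C KO day 0 replicate 1 or 3 or lamin A/C KO day 3 replicate 2 or 3. All 3 lost it with the mean of both Igf2 probe sets.

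Among the other genes of the IGF axis, many passed the threshold after injury and few between genotypes on day 0. Of 14 tested ligands, receptors and binding proteins that are not among the 10 genes, 6 rose and 2 fell in control from day 0 to day 3 by limma, beside the 34.3% of all genes. The growth hormone receptor Ghr, through which growth hormone induces Igf1, fell by 1.48 ± 0.14 on the log2 scale (adjusted p = 5.0e-08), from 3370 and 4025 to a range of 1221 to 1380, while Pappa, a protease that frees IGF from its binding proteins, rose (1.77 ± 0.49, adjusted p = 0.0064), as did the binding protein Igfbp3 (0.87 ± 0.28, adjusted p = 0.017). The type 1 receptor Igf1r rose from day 0 to day 4 in control (0.74 ± 0.19, adjusted p = 0.0045), emerin KO (0.79 ± 0.18, adjusted p = 7.9e-04) and lamin A/C KO (0.43 ± 0.16, adjusted p = 0.034). Igfbp4, a binding protein that restrains IGF, rose over the same days in all 3 genotypes, by 0.94 ± 0.25, 1.33 ± 0.23 and 1.04 ± 0.20. On day 0 by limma 0 of the 14 differed between emerin KO and control past the threshold, and the nearest was Pappa (1.31 ± 0.49, adjusted p = 0.17). On day 3 the binding protein Igfbp7 was lower in emerin KO (-1.44 ± 0.24, adjusted p = 3.8e-04), as were the RNA-binding protein Igf2bp3 (-1.31 ± 0.37, adjusted p = 0.017) and Ghr (-0.64 ± 0.13, adjusted p = 0.0020), and Igfbp6, a binding protein with a preference for IGF2, was higher (0.91 ± 0.20, adjusted p = 0.0032). These 4 of 14 stand beside the 16.3% of all genes, and none of the 4 passed with the Gapdh ratio in the fit, as none of the 19 day 3 calls over these gene lists did.

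Of 30 tested genes of signal transduction below the receptors, 6 rose and 7 fell in control from day 0 to day 3, beside the 34.3% of all genes. The receptor substrate Irs1 fell by 1.96 ± 0.21 on the log2 scale (adjusted p = 2.2e-07), and it fell in emerin KO by 2.49 ± 0.19 and in lamin A/C KO by 1.94 ± 0.17. The adaptor Grb14, a relative of Grb10, fell in control (-1.45 ± 0.23, adjusted p = 2.9e-05) over the days on which Grb10 was higher, and the kinase Akt1 (1.21 ± 0.17, adjusted p = 5.0e-06) and the inhibitor Socs3 (1.80 ± 0.25, adjusted p = 5.3e-06) rose. Between emerin KO and control on day 0, 1 of the 30 passed, Rictor (1.08 ± 0.27, adjusted p = 0.030), a subunit of the second mTOR complex, beside the 3.26% of all genes. On day 3, 1 was higher and 5 lower in emerin KO, beside the 16.3% of all genes, Irs1 (-1.002 ± 0.19, adjusted p = 0.0013) and the mTOR activator Rheb (-1.06 ± 0.28, adjusted p = 0.013) among them, and 0 of the 6 passed once the Gapdh ratio was in the fit. Between lamin A/C KO and control 1 of the 30 passed on day 0, the adaptor Grb2 (0.82 ± 0.17, adjusted p = 0.019), and 0 on day 3 or day 4 by limma, where the genes with the smallest p were Socs3 (0.91 ± 0.23, adjusted p = 0.22) and Eif4ebp1 (0.54 ± 0.18, adjusted p = 0.88).

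Other imprinted genes went both ways after injury. Of 36 tested genes that are imprinted in some mouse tissue, not always in muscle, 9 rose and 6 fell in control from day 0 to day 3, beside the 34.3% of all genes, and the list's median difference was 0.16 where that of all genes was 0.09. Between emerin KO and control on day 0, 3 of the 36 were lower and 0 higher, beside the 3.26% of all genes, and the median was -0.01. The 3 were the cell cycle inhibitor Cdkn1c (-1.46 ± 0.32, adjusted p = 0.011), the noncoding RNA Rian of the Dlk1 region (-1.06 ± 0.29, adjusted p = 0.043) and the tetraspanin Cd81 (-0.49 ± 0.13, adjusted p = 0.036). Cdkn1c, which lies on chromosome 7 and is maternally expressed, read 450.4 to 569 on the emerin KO day 0 arrays, 1028 to 2039 in control and 1533 to 2342 in lamin A/C KO. Meg3, the noncoding RNA next to Dlk1, read 1378 to 1977 against 2280 to 2508 in control and did not pass (-0.53 ± 0.22, adjusted p = 0.23). On day 3, 6 of the 36 were lower in emerin KO, a share like the 16.3% of all genes, with the amino acid transporter Slc38a4 (-1.70 ± 0.25, adjusted p = 1.3e-04) and the protease inhibitor Tfpi2 (-1.29 ± 0.22, adjusted p = 4.1e-04) first, and 0 of these 6 calls were made with the ratio in the fit. Between lamin A/C KO and control 0 of the 36 passed on any day by limma.

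**Figure D5:**
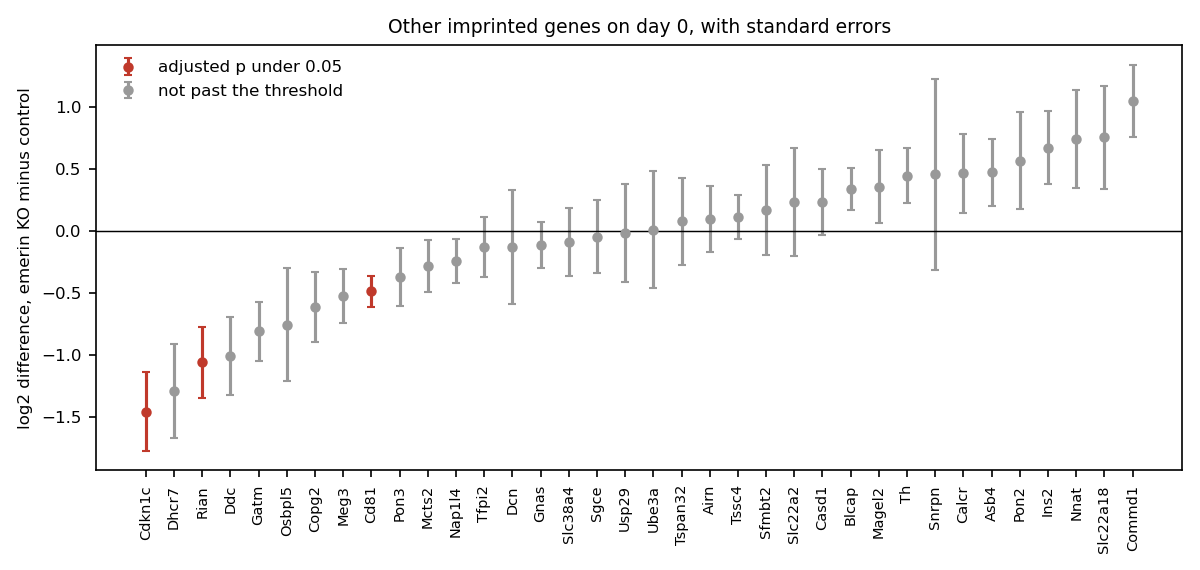
Log2 difference, emerin KO minus control on day 0, for the 36 tested imprinted genes outside the 10, in order of the difference, with bars of 1 standard error. The 3 genes past the threshold, in red, are Cdkn1c (-1.46), Rian (-1.06) and Cd81 (-0.49).

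Of 11 tested genes that keep imprints and methylation, 6 rose, 1 fell and 4 did not pass in control from day 0 to day 3, beside the 34.3% of all genes. The rises were led by Uhrf1 (1.95 ± 0.26, adjusted p = 4.2e-06), which brings the maintenance methyltransferase to replicated DNA, the chromatin remodeller Hells (1.61 ± 0.24, adjusted p = 1.3e-05), the repressor Trim28 (1.33 ± 0.16, adjusted p = 7.6e-07) and the methyltransferase Dnmt1 (1.23 ± 0.16, adjusted p = 2.2e-06). Dnmt3a, a de novo methyltransferase, fell by 0.72 ± 0.17 (adjusted p = 0.0021). On day 0 by limma 0 of the 11 differed between emerin KO and control past the threshold, with Uhrf1 nearest (-0.67 ± 0.26, adjusted p = 0.20). On day 3, 3 were higher in emerin KO, Trim28 (0.81 ± 0.14, adjusted p = 6.8e-04), Uhrf1 (0.72 ± 0.24, adjusted p = 0.045) and Dnmt1 (0.45 ± 0.14, adjusted p = 0.037), beside the 16.3% of all genes, and 0 of the 3 passed with the Gapdh ratio in the fit.

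The likeness of the members' patterns over the 9 group means, a description from the same 23 arrays in which the injury is the main source of variation, put them in loose sets. Peg3 and Grb10 had r = 0.991 with each other, Igf1 and Dlk1 0.977, Igf1 and Plagl1 0.962, and Igf2 and Plagl1 0.955. Igf2r had 0.845 with Grb10, 0.814 with Peg3 and 0.722 with Mest, and 0.531 with Igf2 and 0.384 with Dlk1. Over all genes tested, those most like Igf2 were the matrix genes Mfap5 (0.976), Thbs4 (0.974) and Postn (0.965), Postn being also on the fibroblast marker list. Those most like Plagl1 were Spats2l (0.992), the secreted growth factor Ptn (0.987) and Copg2 (0.986), which is the neighbour of Mest, and those most like Mest were Nectin3 (0.992), Fndc3a (0.992) and Smad1 (0.991). Those most like Peg3, besides Grb10, were Fstl1 (0.992) and Pdia5 (0.987), and those most like Grb10 were Rftn2 (0.996), Tubb6 (0.994) and Chst12 (0.994). Those most like Igf2r were Itpr3 (0.987), Mtss1 (0.985) and Slc20a1 (0.985), and those most like Ndn were Pacrgl (0.971), Eny2 (0.969) and the unnamed cDNA 6820431F20Rik (0.966).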

How the data were processed

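RNA of gastrocnemius muscle was hybridised to 23 Affymetrix arrays. The authors deposited 1 MAS5 signal (intensity on a linear scale) per probe set and array, per the submitters' processing notes, which give no MAS5 version, and the mean of each array after trimming 2% at either end lay between 150.04 and 150.06. Arrays were grouped by title. Signals were multiplied so that this trimmed mean became 500 and then turned into log2(signal + 32). Of 22690 probe sets, 20380 had 1 symbol and 691 several, 1555 had no listed gene and 64 were controls. The brightest probe set stood for a gene, and the 11164 genes that reached a signal of 100 on 2 or more arrays were fitted with limma 3.58.1 (R 4.3.3, trend=TRUE) over all 9 groups, with 14 residual degrees of freedom and 24 comparisons. Every adjusted p is limma's with Benjamini-Hochberg adjustment over all genes tested within a comparison, and 0.05 was the threshold. No 2 arrays held identical values. Probe sets were also fitted singly. The number of arrays limits the precision.

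The members, gene lists and tests were chosen with earlier results of these data known. Named from the lists are members past the threshold with the largest differences, or that with the smallest p; the genes most like a member were the 3 with the highest Pearson r over the group means. The scripts were tested on simulated data. Alternatives were quantile normalization, a pseudocount of 1 or 100, testing without the filter, averaging a gene's probe sets, a replicate block, only the compared groups, the Gapdh ratio as a covariate, each array left out, and, chosen after seeing the data, the 5 emerin KO arrays with a Gapdh ratio above 2 left out. Figures used matplotlib 3.10.9 (Python 3.11.15).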

Additional observations from a re-analysis of the deposited data

Results flagged for a closer look

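Tests of the difference between genotypes in the change after injury singled out 8 results among a chosen set of genes. The set was the followed genes and the IGF, signal transduction, imprinting and methylation lists, without the cell type markers. Of all genes tested, 2.64% passed the threshold for emerin KO from day 0 to day 3. The shares were 0.573% and 0.0448% for emerin KO from day 0 to day 4 and from day 3 to day 4. For lamin A/C KO from day 0 to day 3 the share was 0.170%. Genes outside the set thus passed too. From day 0 to day 3 the change in emerin KO exceeded that in control by 1.39 ± 0.36 (log2, ± SE, limma adjusted p = 0.040) for Uhrf1, by 0.83 ± 0.21 (adjusted p = 0.040) for Dnmt1 and by 1.17 ± 0.29 (adjusted p = 0.037) for Igfbp6, and it lay below it by -0.82 ± 0.19 (adjusted p = 0.025) for Ghr and by -1.61 ± 0.37 (adjusted p = 0.023) for Slc38a4. These 5 share the emerin KO day 3 arrays, whose Gapdh ratio was 3.62 to 6.09, and with that ratio as a covariate 0 of the 5 calls were made. For Igf2, whose values are a description because the gene was chosen with these contrasts in view, the difference was 1.39 for emerin KO from day 0 to day 4, 1.71 for emerin KO from day 3 to day 4 and -1.40 for lamin A/C KO from day 0 to day 3.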

How the results depend on the processing

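Of 78 calls of the 9 genes over the comparisons, 38 were kept in every alternative that could be run and 57 without any 1 array. Quantile normalization lost 2, the pseudocounts and dropping the filter 0, averaging a gene's probe sets 14, only the compared groups 13, the Gapdh covariate 19 and leaving out the 5 high-ratio arrays 6 of 59, since these arrays include all of emerin KO day 3, whose comparisons then have no value. The replicate block lost 0 of 78. Of same-numbered arrays of different groups, 26 of 82 pairs had deviations correlated above 0.1 (median r 0.0243), against 28 of 152 differently numbered pairs (median r -0.0195). Such correlations were thus more frequent among same-numbered pairs. The numbers were not taken as pairing in the main fit, and a batch that follows them was not tested. With the block, 5 in place of 3 of the 9 genes passed from day 3 to day 4 in emerin KO, and 1 in place of 0 in the emerin KO interaction from day 0 to day 3. Quantile normalization moved the median of all genes by -0.09 to 0.09.

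With the Gapdh ratio as a covariate 4 differences changed sign: Dlk1 (0.27) and Igf1 (0.11) in emerin KO minus control on day 3, and, in emerin KO minus lamin A/C KO, Mest on day 3 (0.16) and Igf2 on day 4 (0.0561). The count of the 9 genes fell from 5 to 0 and from 2 to 0 for emerin KO minus control on days 3 and 4, from 3 to 0 on each of these days against lamin A/C KO, and from 4 to 1 for lamin A/C KO from day 3 to day 4. Other listed genes went from 47 to 27 for emerin KO from day 0 to day 3, from 4 to 0 from day 3 to day 4, from 19 to 0 and 7 to 0 against control, from 12 to 0 and 18 to 0 against lamin A/C KO on days 3 and 4, and from 5 to 0 for the interaction. Without the 5 arrays the day 4 counts of the 9 genes were 0 in place of 2 against control and 0 in place of 3 against lamin A/C KO, and those of the other listed genes 0 in place of 7 and 0 in place of 18. Shares of all genes past the threshold under these settings are not given, and the cause was not tested.

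With the mean of all probe sets the counts of the 9 genes were 3 in place of 6 for emerin KO minus control on day 0, 5 in place of 3 and 7 in place of 3 against lamin A/C KO on days 3 and 4, 0 in place of 1 on day 0 between lamin A/C KO and control, and 0 for each of the 3 Igf2 interactions. Other listed genes were 2 in place of 4 for emerin KO from day 3 to day 4 and 0 in place of 1 on day 0 between lamin A/C KO and control, where a pseudocount of 1 gave 2. With only the compared groups, and so fewer arrays, the 9 genes gave 1 in place of 6 and 1 in place of 2 for emerin KO minus control on days 0 and 4, 0 in place of 1 for lamin A/C KO on day 0 and 0 for both emerin KO interactions of Igf2. Other listed genes gave 0 in place of 4 and 0 in place of 7 for emerin KO minus control on days 0 and 4, 2 in place of 4 for emerin KO from day 3 to day 4, 3 in place of 11 against lamin A/C KO on day 0 and 1 in place of 5 for the interaction. Quantile normalization gave 0 for the Igf2 interaction from day 0 to day 4.

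Without 1 array, the 9 genes gave 5 to 6 calls in control from day 0 to day 3, 6 to 7 to day 4, 6 to 7, 7 to 9 and 2 to 3 within emerin KO, 5 to 6, 6 to 8 and 1 to 4 within lamin A/C KO, 5 to 6, 3 to 5 and 1 to 3 for emerin KO minus control on the 3 days, 6 to 7, 2 to 4 and 2 to 3 against lamin A/C KO, 0 to 1 on day 0 between lamin A/C KO and control, and 0 to 1 for the interactions. Other listed genes gave 27 to 32 and 23 to 31 in control from day 0 to days 3 and 4, 40 to 53, 39 to 53 and 0 to 3 within emerin KO, 38 to 40, 33 to 36 and 1 to 4 within lamin A/C KO, 0 to 8, 9 to 21 and 1 to 10 for emerin KO minus control, 5 to 14, 7 to 17 and 9 to 21 against lamin A/C KO, 0 to 1 on day 0 between lamin A/C KO and control, and 0 to 10 and 0 to 6 for the emerin KO interactions from day 0. The counts are of few arrays, and a brightest probe set near the minimum signal of 100 carries little above background.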
